A study of Mus musculus with 75 samples.

Results

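RNA from the lungs of bleomycin-treated (BLEO-IPF) mice killed on day 42 was set against RNA from BLEO-IPF mice killed on day 7, which contrasts the change that remained late after the injury with the early injury itself. The comparison used the 7 libraries labelled bleomycin day 42 and the 10 labelled bleomycin day 7, 17 of the 75 libraries of the longitudinal series, and all 16221 of 55536 genes that passed a filter on low counts. All mice were male C57BL/6JRj and were 12 to 14 weeks old when bleomycin, an antineoplastic agent that damages DNA, was instilled once into the trachea. The labels name no engineered allele, and BLEO-IPF mice entered the study only if they had lost 5 to 17% of their body weight by day 6. Each library came from 1 mouse and from 1 lobe, the inferior lobe on the right side. The airways had been rinsed with saline, so cells washed out by the lavage were not sequenced. The 10 control mice (CTRL), labelled saline but described as untreated in the study's methods, give the level without bleomycin. Day 42 mice were 35 days older than day 7 mice when they were killed, so age and time after injury cannot be told apart, and they were mice that had survived to that day.

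Bleomycin breaks DNA and kills alveolar epithelial cells. The injury is followed by recruitment of monocytes and lymphocytes, proliferation of epithelial, endothelial and stromal cells, and deposition of collagen by activated fibroblasts. Alveolar type 2 (AT2) cells, which make surfactant, restore the thin type 1 (AT1) cells that carry gas exchange and pass through a keratin-rich transitional state on the way. In young mice much of this response resolves over weeks after a single dose.

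Total counts per library ranged from 9718300 to 12329251 on day 7 and from 10134347 to 11620555 on day 42. The summed level of 12 AT2 genes ranged from 20106 to 33321 CPM (counts scaled to a common library total with TMM factors) on day 7 and from 28786 to 35214 on day 42, so lung epithelium was present in every library. Genes of fat stood apart in 1 library. The 5 adipose genes summed to 109.6 CPM in day 7 mouse 8, against at most 4.04 CPM in the other day 7 mice and 2.18 CPM on day 42. Day 7 mouse 5 was also far from its group for several genes named here. Counts over all genes are therefore also given without each of these mice, and counts of list members where they moved by over 1.5 times. Red blood cell, thymus, mesothelium, skeletal muscle, cardiac muscle and mitochondrially encoded genes each had 0 members called between the days by edgeR. At an unadjusted p under 0.05 there was 1 mesothelium and 1 mitochondrially encoded gene, both lower on day 42, and by DESeq2 1 mesothelium gene. The adipose list had 2 of 3 members lower on day 42, *Adipoq* and *Plin1*, a count that was 0 without day 7 mouse 8 and 0 by DESeq2. The mesothelium and mitochondrial lists each had 1 member lower without some single mice (day 42 mice 1 and 5 and day 7 mice 1 and 4 for mesothelium, day 7 mice 4 and 7 for mitochondrial genes). The lowest, median and highest sums of the 7 cardiac muscle genes were 47.9, 70.99 and 411 CPM on day 7 and 36.4, 157 and 216 CPM on day 42. The highest was day 7 mouse 1, without which 2 of the 7 were higher on day 42.

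Of the 16221 genes tested, 1279 (7.88%) were higher and 1609 (9.92%) were lower on day 42 than on day 7 at an adjusted p under 0.05 (edgeR's quasi-likelihood test, Benjamini-Hochberg adjustment), 17.8% in all. Without day 7 mouse 8 the counts were 1098 higher and 1380 lower, and without day 7 mouse 5 they were 1035 and 1343. A change of at least 2-fold was less common, with 191 genes (1.18%) higher and 346 (2.13%) lower. The 7 day 42 mice lay above all 10 day 7 mice for 196 genes (1.21%) and below all of them for 332 genes (2.05%). The median log2FC over all genes was close to 0, at -0.009. For scale, 45.8% of genes differed from CTRL on day 7 and 24.7% on day 42. These contrasts share the day 7, day 42 and CTRL mice with the comparison between the days, so values against CTRL are given side by side and carry no further weight. In whole lung tissue, fewer cells of a type and less RNA per cell cannot be told apart.

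**Figure D1:**
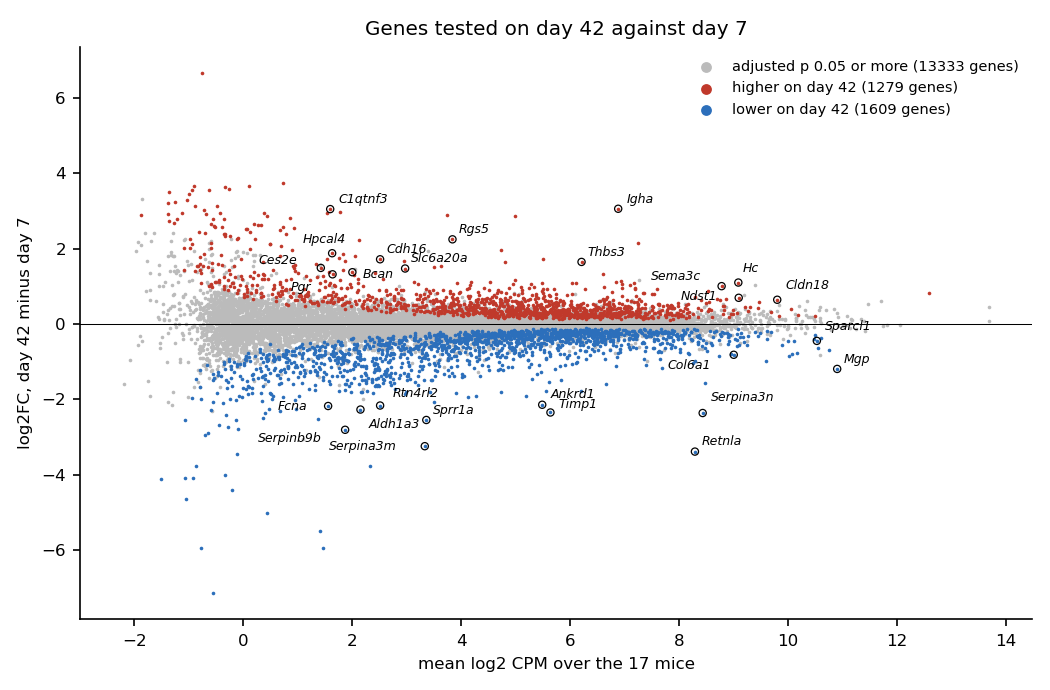
Each point is 1 of the 16221 genes tested, with the mean log2 CPM over the 17 mice on the x axis and the log2FC of day 42 minus day 7 on the y axis. The 1279 genes that were higher on day 42 are red, the 1609 that were lower are blue and the rest are grey, and circles mark the 27 genes with the largest changes in log2FC or in CPM, from *Retnla* at -3.39 to *Igha* at 3.06.

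The gene with the largest fall was *Retnla* (resistin-like alpha, a secreted protein of alternatively activated macrophages and airway epithelium; chr16:48842551-48844461, plus strand, GRCm38). The lowest, median and highest *Retnla* levels were 458, 865 and 1294 CPM on day 7 and 33.7, 84.4 and 143 CPM on day 42, with no overlap between the groups (log2FC -3.39 ± 0.46, adjusted p = 2e-07). The level in CTRL mice ranged from 20.02 to 47.9 CPM, so day 42 mice overlapped the controls and lay far below day 7. Against CTRL its log2FC was 4.75 on day 7 (adjusted p = 2.2e-14) and 1.36 on day 42 (adjusted p = 0.011). *Retnla* is also expressed in fat. Without day 7 mouse 8 its log2FC was -3.39.

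Genes of 4 protease inhibitors were among those that fell most. *Serpina3n*, an acute-phase inhibitor of serine proteases, was measured at 488, 639.8 and 1087 CPM (lowest, median and highest) on day 7 and at 112, 122 and 165 CPM on day 42 (log2FC -2.37 ± 0.34, adjusted p = 7.4e-07). *Serpina3m*, from the same gene cluster, had medians of 24.1 CPM on day 7 and 2.88 CPM on day 42 (log2FC -3.25 ± 0.54, adjusted p = 9.4e-06). *Serpinb9b*, of the granzyme-inhibitor family, had medians of 7.51 CPM on day 7 and 1.12 CPM on day 42 (log2FC -2.81 ± 0.52, adjusted p = 4.7e-05). The *Serpina3* and *Serpinb9* genes have close copies, so reads may be split among them and the share of each copy is uncertain. *Timp1*, which inhibits matrix metalloproteinases, spanned 65.3, 101 and 150.3 CPM on day 7 and 9.78, 16.3 and 49.2 CPM on day 42, again with no mouse of one group inside the range of the other (log2FC -2.35 ± 0.52, adjusted p = 0.00058). On day 42 *Timp1* was still above CTRL (log2FC 1.98 ± 0.54, adjusted p = 0.0048). The 3 serpins missed the threshold against CTRL (adjusted p = 0.49 for *Serpina3n*, adjusted p = 0.38 for *Serpina3m* and adjusted p = 0.54 for *Serpinb9b*).

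Among the other large decreases, *Sprr1a*, a cornified-envelope protein of stressed epithelium, fell, with medians of 22.6 CPM on day 7 and 2.91 CPM on day 42 (log2FC -2.55 ± 0.36, adjusted p = 3.3e-07). All day 42 mice lay below all day 7 mice, and all 7 were above the highest CTRL mouse, which reached 1.04 CPM. *Aldh1a3*, which makes retinoic acid, had medians of 8.09 CPM on day 7 and 1.90 CPM on day 42 (log2FC -2.27 ± 0.36, adjusted p = 3.8e-06). *Ankrd1*, a nuclear ankyrin-repeat protein induced by stretch and by YAP, had medians of 81.7 CPM on day 7 and 17.2 CPM on day 42 (log2FC -2.15 ± 0.33, adjusted p = 2.3e-06). *Rtn4rl2*, a Nogo receptor homologue, had medians of 10.7 CPM on day 7 and 1.97 CPM on day 42 (log2FC -2.17 ± 0.37, adjusted p = 1.6e-05). *Fcna*, a ficolin that starts the lectin pathway of complement, had medians of 4.90 CPM on day 7 and 0.790 CPM on day 42 (log2FC -2.18 ± 0.60, adjusted p = 0.0065). The last 4 genes did not pass the test against CTRL on day 42 (adjusted p between 0.54 and 0.90).

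In absolute level the largest falls in mean CPM were those of *Mgp*, *Retnla*, *Serpina3n*, *Sparcl1* and *Col6a1*. *Mgp*, a matrix protein that inhibits calcification, spanned 2028, 2755 and 3397 CPM on day 7 and 999, 1209.9 and 1344 CPM on day 42 (log2FC -1.20 ± 0.19, adjusted p = 3.8e-06). The CTRL mice lay between 802 and 1015 CPM. *Sparcl1*, a matricellular protein of vessels and stroma, was close to its threshold, at 1659 CPM on day 7 and 1206 CPM on day 42 (log2FC -0.45 ± 0.16, adjusted p = 0.041), although its groups did not overlap. The call was lost without any 1 of 9 mice (highest adjusted p = 0.082).

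*Igha*, the constant region of the IgA heavy chain (chr12:113254830-113260236, minus strand, GRCm38), had the largest rise. Its lowest, median and highest levels were 18.03, 46.7 and 95.6 CPM on day 7 and 139.9, 341 and 1011 CPM on day 42, so even the lowest day 42 mouse exceeded every day 7 mouse (log2FC 3.06 ± 0.63, adjusted p = 0.00029). Day 7 mice lay within the range of CTRL mice or just below it, from 29.1 to 137 CPM in CTRL.

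*C1qtnf3*, a secreted protein of the C1q and TNF-related family made by stromal cells, spanned 0.352, 1.30 and 2.11 CPM on day 7 and 5.49, 8.74 and 23.5 CPM on day 42 (log2FC 3.05 ± 0.59, adjusted p = 9.5e-05). Counts behind the day 7 values were low, from 4 to 26 per library. Its level was below CTRL on day 7 and above CTRL on day 42, with log2FC of -1.59 on day 7 (adjusted p = 0.021) and 1.46 on day 42 (adjusted p = 0.034). *Rgs5*, a regulator of G protein signalling that marks pericytes, spanned 5.85, 7.30 and 13.3 CPM on day 7 and 17.3, 38.99 and 72.9 CPM on day 42 (log2FC 2.24 ± 0.44, adjusted p = 0.00014). Day 7 mice were near CTRL in median (7.30 against 7.89 CPM), and of the day 42 mice 3 lay between 17.3 and 19.8 CPM and 4 between 38.99 and 72.9 CPM. *Slc6a20a*, an imino acid transporter, was likewise near CTRL on day 7 (5.18 against 5.23 CPM) and rose to a median of 13.7 CPM on day 42 (log2FC 1.47 ± 0.20, adjusted p = 2.7e-07).

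The other large increases were of genes that had been below CTRL on day 7. *Thbs3*, a thrombospondin of the extracellular matrix, spanned 28.9, 47.3 and 60.2 CPM on day 7 and 105, 146 and 176 CPM on day 42 (log2FC 1.64 ± 0.19, adjusted p = 1.4e-09), with CTRL mice from 76.9 to 128 CPM. *Cdh16*, a cadherin of epithelial cells, had medians of 3.54 CPM on day 7 and 10.2 CPM on day 42 (log2FC 1.71 ± 0.30, adjusted p = 1.7e-05). *Hpcal4*, a calcium sensor of the visinin family, had medians of 1.93 CPM on day 7 and 5.89 CPM on day 42 (log2FC 1.88 ± 0.42, adjusted p = 0.00082). *Bcan*, the proteoglycan brevican, had medians of 2.43 CPM on day 7 and 6.61 CPM on day 42 (log2FC 1.37 ± 0.43, adjusted p = 0.019), a call lost without day 42 mouse 5 (adjusted p = 0.051). *Pgr*, the progesterone receptor, had medians of 2.06 CPM on day 7 and 4.57 CPM on day 42 (log2FC 1.32 ± 0.33, adjusted p = 0.0024). *Ces2e*, a carboxylesterase, had medians of 1.60 CPM on day 7 and 4.97 CPM on day 42 (log2FC 1.49 ± 0.29, adjusted p = 0.00013). On day 42 none of these 6 genes passed the threshold against CTRL (adjusted p from 0.0995 to 0.98 by edgeR), though 2 did before adjustment, *Ces2e* (p = 0.0324) and *Thbs3* (p = 0.0336).

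The largest rises in mean CPM were of *Hc*, *Cldn18*, *Igha*, *Sema3c* and *Ndst1*. *Hc*, complement component C5, which AT2 cells make, spanned 297, 400.0 and 503 CPM on day 7 and 661, 915 and 1013 CPM on day 42 (log2FC 1.10 ± 0.32, adjusted p = 0.012). *Cldn18*, a tight junction protein of alveolar epithelium, spanned 653, 733 and 935 CPM on day 7 and 965, 1166 and 1282 CPM on day 42 (log2FC 0.64 ± 0.12, adjusted p = 4.9e-05). It was above CTRL on day 42 (log2FC 0.51 ± 0.12, adjusted p = 0.00085). *Sema3c*, a secreted semaphorin, had medians of 339 CPM on day 7 and 674 CPM on day 42 (log2FC 1.001 ± 0.18, adjusted p = 2.7e-05). For *Ndst1*, which modifies heparan sulphate, medians were 437 CPM on day 7 and 712 CPM on day 42 (log2FC 0.69 ± 0.11, adjusted p = 7.2e-06). Counts of genes on the strand opposite *Ndst1* came to 80.1% of its own, those opposite *Thbs3* to 28.1% and those opposite *Slc6a20a* to 24.9%, and as the handling of strand in the counting is not stated these 3 values are uncertain.

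**Figure D2:**
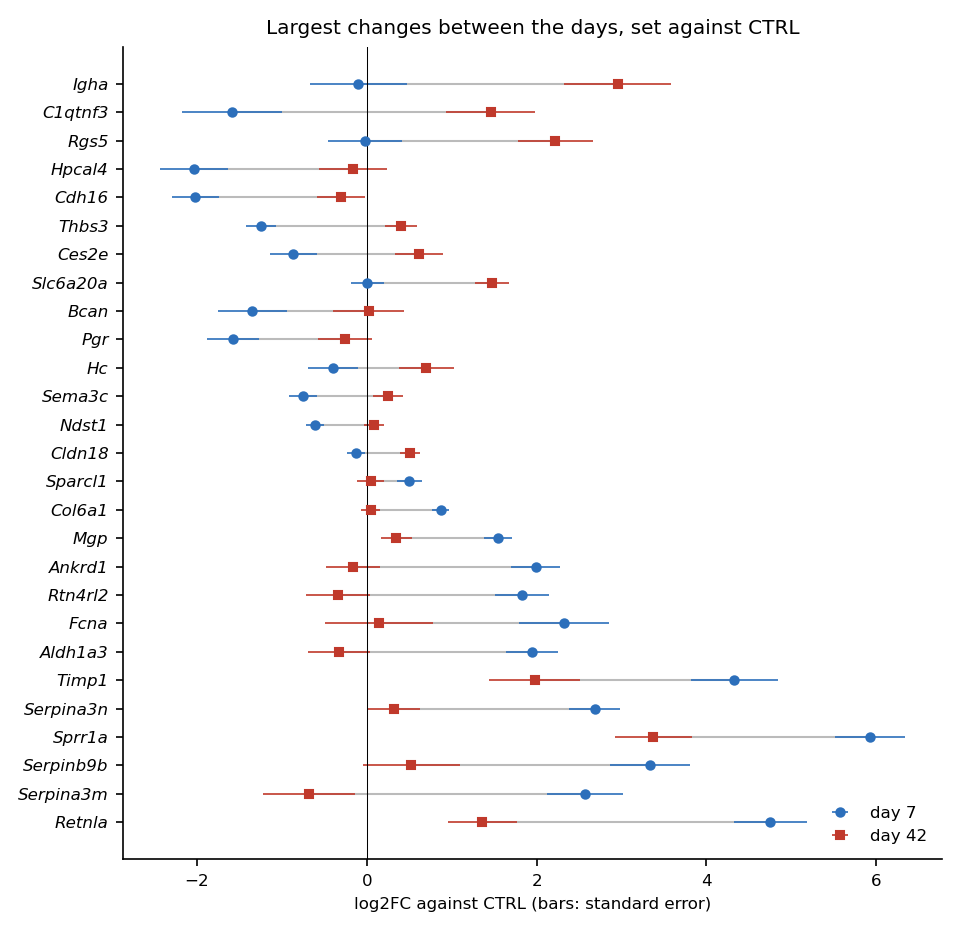
Log2FC against CTRL on day 7 (blue circles) and on day 42 (red squares) of the 27 genes with the largest changes between the days, with bars for the standard error. *Igha*, *Rgs5* and *Slc6a20a* lay at CTRL on day 7 and above it on day 42, *Hpcal4*, *Cdh16*, *Thbs3*, *Bcan* and *Pgr* lay below CTRL on day 7 and near it on day 42, and *Retnla*, *Timp1* and *Sprr1a* were above CTRL on both days.

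**Figure D3:**
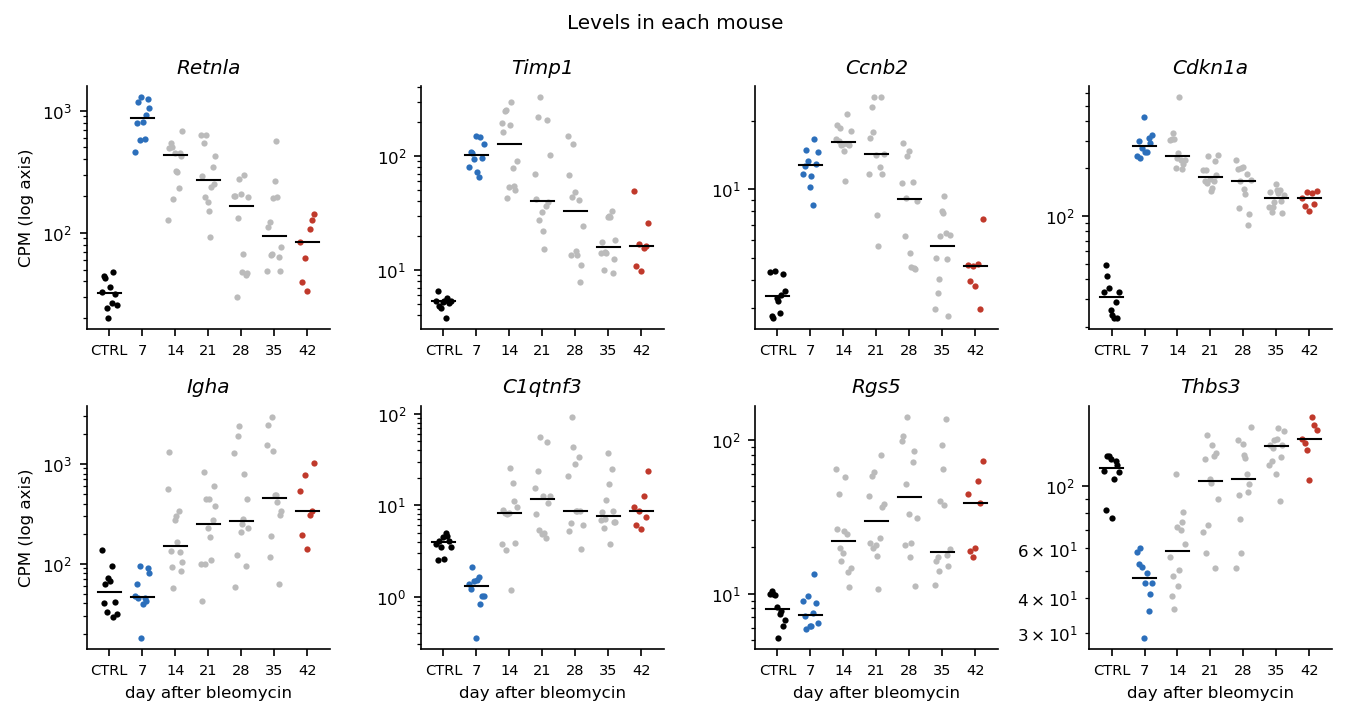
CPM of 8 genes in every mouse of the series on a log axis, with CTRL mice black, day 7 blue, day 42 red, the days between grey and a line at each group's median. *Retnla* fell through medians of 865, 438, 272, 165, 94.9 and 84.4 CPM from day 7 to day 42, and *Thbs3* rose through 47.3, 58.98, 104, 106, 138 and 146 CPM.

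Every member of both proliferation lists fell. All 20 DNA replication genes, which license origins, make nucleotides and copy DNA, were lower on day 42, with a median log2FC of -0.92, and all 20 mitosis genes were lower, with a median of -1.38. Over all genes tested 9.92% were lower and the median was -0.009. Both counts stayed at 20 without each of the 17 mice in turn and under each alternative that kept the adjusted p alone as threshold. The day 42 mice lay below all day 7 mice for 14 replication genes and 7 mitosis genes (2.05% of all genes). On day 7 all 20 members of each list had been higher than CTRL (24.8% of all genes were), and on day 42 this held for 2 replication and 5 mitosis genes (13.7% of all genes). As a mean of log2 CPM relative to CTRL, the mitosis genes stood at 1.18, 1.87 and 2.17 (lowest, median and highest mouse) on day 7 and at 0.08, 0.51 and 1.19 on day 42. One day 42 mouse, at 1.19, was just inside the day 7 range.

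*Rrm1*, the large subunit of ribonucleotide reductase, spanned 69.99, 76.9 and 94.3 CPM on day 7 and 39.4, 42.5 and 47.2 CPM on day 42 (log2FC -0.92 ± 0.11, adjusted p = 6.8e-09), and the CTRL median was 42.5 CPM. *Mcm5*, a subunit of the replicative helicase, had medians of 36.3 CPM on day 7 and 17.2 CPM on day 42 (log2FC -1.08 ± 0.16, adjusted p = 1.9e-06), and its partner *Mcm4* had medians of 52.3 CPM on day 7 and 34.5 CPM on day 42 (log2FC -0.58 ± 0.08, adjusted p = 7.3e-07). None of these 3 genes passed the test against CTRL on day 42 (adjusted p = 0.9, adjusted p = 0.79 and adjusted p = 0.071). Of the mitotic genes, *Aurka*, the kinase of spindle poles, spanned 5.18, 8.26 and 10.7 CPM on day 7 and 2.37, 2.76 and 4.34 CPM on day 42 (log2FC -1.43 ± 0.23, adjusted p = 7.2e-06). The mitotic cyclins followed, *Ccnb2* with medians of 12.8 CPM on day 7 and 4.59 CPM on day 42 (log2FC -1.47 ± 0.24, adjusted p = 9.3e-06) and *Ccnb1* with 7.46 CPM on day 7 and 2.25 CPM on day 42 (log2FC -1.82 ± 0.31, adjusted p = 1.4e-05).

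Because the genes of these lists moved together, their promoters were searched for letters bound by cell cycle factors (RefSeq starts, 250 bases before to 50 after, GRCm38.p6). Mitotic genes are known for a cell cycle homology region (CHR, TTTGAA) near the start together with CCAAT boxes, and replication genes for E2F sites, here TTTGGCGC or TTTCGCGC, each counted on both strands. A promoter entry was matched for 16 of the 20 genes of each list. TTTGAA was in 12 of 16 mitosis promoters (75.0%), in 2 of 16 replication promoters (12.5%) and in 20.2% of the 27025 genes with a promoter. CCAAT was in 14 (87.5%), in 12 (75.0%) and in 41.1%. The E2F letters were in 1 mitosis promoter (6.25%), in 8 of 16 replication promoters and in 0.929% of all genes. These matches describe the windows and do not show binding. Below, the first 2 sequences are the promoters of the mitotic genes with the smallest p that held both TTTGAA and CCAAT, with these letters in capitals, and the last 2 those of the replication genes with the smallest p that held E2F letters, in capitals, where overlapping matches run together.
Aurka (chr2:172370521-172370820, minus strand): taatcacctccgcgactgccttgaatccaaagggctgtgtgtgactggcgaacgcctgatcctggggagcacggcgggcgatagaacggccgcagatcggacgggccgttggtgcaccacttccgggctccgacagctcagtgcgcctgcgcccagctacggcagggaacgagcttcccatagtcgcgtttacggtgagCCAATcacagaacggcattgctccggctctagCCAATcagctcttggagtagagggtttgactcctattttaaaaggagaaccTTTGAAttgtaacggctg
Ccnb2 (chr9:70421505-70421804, minus strand): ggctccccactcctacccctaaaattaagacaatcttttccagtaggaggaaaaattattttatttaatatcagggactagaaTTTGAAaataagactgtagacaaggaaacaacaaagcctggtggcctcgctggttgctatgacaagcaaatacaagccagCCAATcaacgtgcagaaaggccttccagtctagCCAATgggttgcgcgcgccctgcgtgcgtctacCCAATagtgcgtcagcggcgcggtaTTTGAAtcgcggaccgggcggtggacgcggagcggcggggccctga
Mcm5 (chr8:75109259-75109558, plus strand): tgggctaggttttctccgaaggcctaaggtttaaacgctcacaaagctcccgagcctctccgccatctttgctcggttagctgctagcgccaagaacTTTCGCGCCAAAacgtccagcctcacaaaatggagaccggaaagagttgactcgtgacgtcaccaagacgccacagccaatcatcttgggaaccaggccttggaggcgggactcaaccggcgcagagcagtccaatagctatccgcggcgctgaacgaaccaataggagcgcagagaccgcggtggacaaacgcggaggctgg
Mcm6 (chr1:128359656-128359955, minus strand): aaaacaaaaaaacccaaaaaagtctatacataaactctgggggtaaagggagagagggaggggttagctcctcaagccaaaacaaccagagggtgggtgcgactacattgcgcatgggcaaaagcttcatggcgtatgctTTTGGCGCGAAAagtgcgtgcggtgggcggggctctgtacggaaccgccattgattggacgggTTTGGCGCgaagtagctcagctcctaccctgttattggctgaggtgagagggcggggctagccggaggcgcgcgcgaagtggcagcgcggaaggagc
In *Ccnb2* 3 CCAAT boxes stand upstream of a TTTGAA at the start, and in *Aurka* 2 do. *Mcm6*, whose promoter holds E2F letters at 2 places, had medians of 68.4 CPM on day 7 and 42.6 CPM on day 42 (log2FC -0.69 ± 0.10, adjusted p = 2.2e-06).

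Targets of p53, the transcription factor activated by DNA breaks, fell in part and stayed above CTRL. Of 16 members, 8 were lower and 2 higher on day 42 (9.92% and 7.88% of all genes; 1 higher without day 42 mouse 2 or 3), with a median log2FC of -0.43. All 13 members that passed the test against CTRL on day 7 were higher (24.8% of all genes were), and so were all 11 that passed it on day 42 (13.7% of all genes), with medians of 1.02 and 0.56. *Cdkn1a*, the p21 inhibitor of cyclin-dependent kinases, spanned 234, 278 and 425 CPM on day 7 and 107, 131 and 143 CPM on day 42. CTRL mice ranged from 22.6 to 49.3 CPM. The 3 groups did not overlap, and the log2FC was -1.17 ± 0.16 between the days (adjusted p = 3.2e-07) and 2.02 ± 0.16 on day 42 against CTRL (adjusted p = 1.4e-15).

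The same 3 separate levels were seen for *Ccng1*, cyclin G1, which spanned 358, 421 and 470.0 CPM on day 7, 189.9, 214 and 234 CPM on day 42 and 102, 114 and 122 CPM in CTRL (log2FC -0.98 ± 0.09, adjusted p = 4.5e-13 between the days). *Aen*, an apoptosis-enhancing nuclease, had medians of 35.5 CPM on day 7 and 21.99 CPM on day 42 (log2FC -0.63 ± 0.09, adjusted p = 1.5e-07) and 15.5 CPM in CTRL. *Bbc3*, which encodes the pro-apoptotic protein PUMA, went the other way, at 13.8 CPM on day 7 and 17.3 CPM on day 42 (log2FC 0.32 ± 0.10, adjusted p = 0.017), with overlapping groups. The mean log2 CPM of the list relative to CTRL was 0.95, 1.15 and 1.24 on day 7 and 0.52, 0.69 and 0.80 on day 42, so no day 42 mouse reached either the day 7 or the CTRL range, whose highest mouse was at 0.24.

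**Figure D4:**
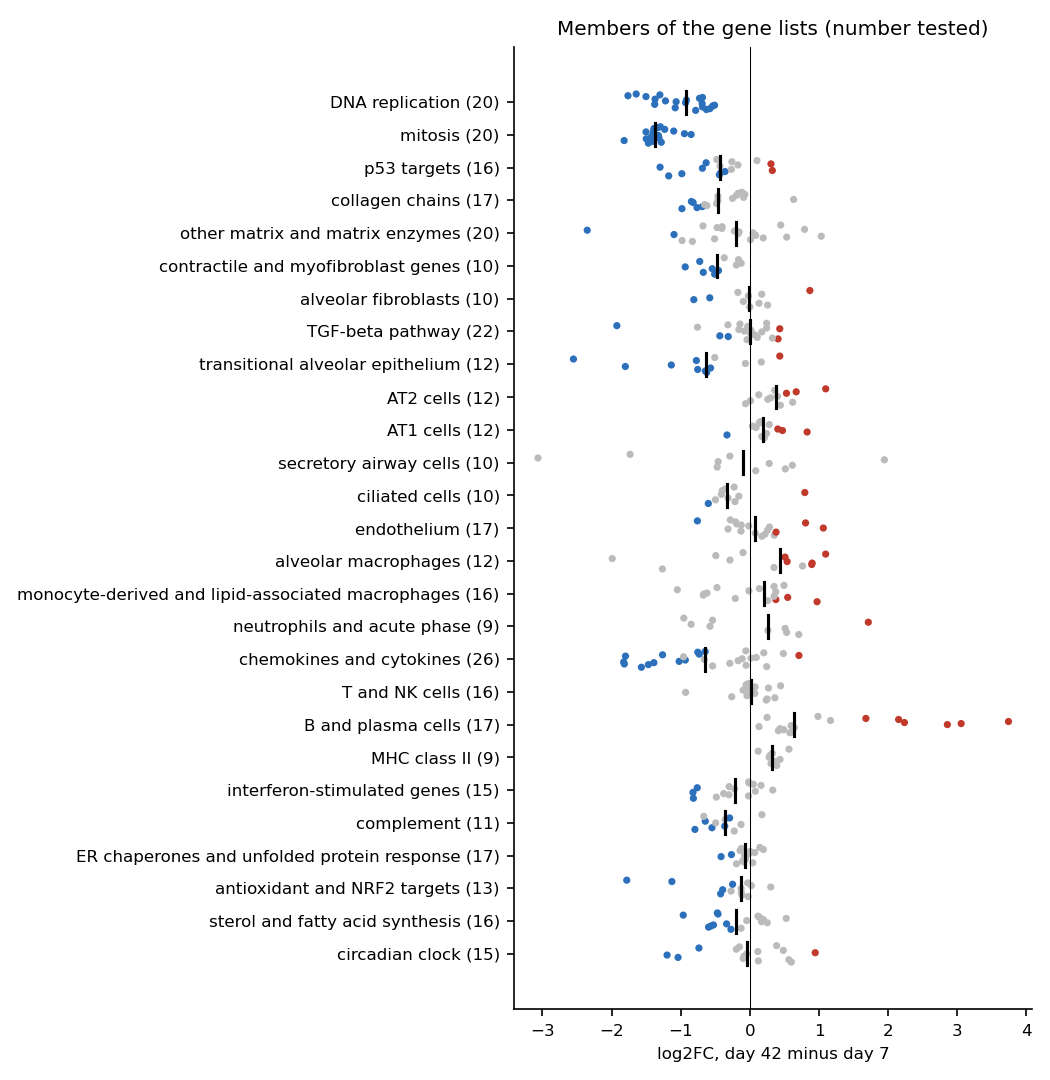
Log2FC of day 42 minus day 7 for each tested member of the 27 lists, with blue for members lower and red for members higher on day 42 at an adjusted p under 0.05, grey for the rest and a line at each list's median. All 20 DNA replication and all 20 mitosis genes are blue, whereas T and NK cell and MHC class II genes are all grey.

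Interstitial collagens fell in part. Among 17 collagen chains, 5 were lower on day 42 and 0 higher (9.92% and 7.88% of all genes), with a median log2FC of -0.46. They were *Col1a1*, *Col1a2*, *Col3a1*, *Col6a1* and *Col6a2*, and the count was 3 under DESeq2, 3 without day 7 mouse 8 and between 3 and 5 without each mouse in turn. *Col6a1*, a chain of microfibrillar type VI collagen, spanned 463, 658 and 825 CPM on day 7 and 316, 377 and 414 CPM on day 42 (log2FC -0.82 ± 0.11, adjusted p = 2.7e-07), and *Col6a2* had medians of 528 CPM on day 7 and 310.1 CPM on day 42 (log2FC -0.85 ± 0.13, adjusted p = 2.5e-06). Their CTRL medians were 365 and 299.6 CPM, and neither passed the test against CTRL on day 42 (adjusted p = 0.8 and adjusted p = 0.92). *Col3a1*, of fibrillar type III collagen, had overlapping groups, with 1445, 2049 and 2917 CPM on day 7 and 1031, 1341 and 1637 CPM on day 42 (log2FC -0.69 ± 0.21, adjusted p = 0.013). It stayed above CTRL on day 42 (log2FC 1.04 ± 0.20, adjusted p = 7.6e-05). Against CTRL, 14 chains were higher on day 7 (24.8% of all genes) and 8 on day 42 (13.7% of all genes). The list peaked between the days compared, with a median of 0.95 above the CTRL mean on day 7, 1.73 on day 14 and 0.59 on day 42.

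Among 20 other matrix genes and matrix enzymes, 2 were lower on day 42, *Timp1* and *Lox*, and 0 higher, with a median of -0.20. The share that fell was near that of all genes (9.92%), and the fit of the 17 mice only gave 6 lower and 2 higher. *Lox*, which crosslinks collagen and elastin, had medians of 208 CPM on day 7 and 104 CPM on day 42 (log2FC -1.10 ± 0.36, adjusted p = 0.026). Its call was lost without day 7 mouse 5, day 42 mouse 2 or day 42 mouse 6 (adjusted p = 0.066, adjusted p = 0.058 and adjusted p = 0.054), which left 1 member lower. *Fbn1*, the microfibril protein fibrillin-1, had medians of 432 CPM on day 7 and 262 CPM on day 42 (log2FC -0.68 ± 0.26, adjusted p = 0.06). Against CTRL, 15 of the 20 were higher on day 7 (24.8% of all genes) and 14 on day 42 (13.7% of all genes), with medians of 1.47 and 0.99.

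Contractile genes of smooth muscle and myofibroblasts were lower for 6 of 10 members and higher for 0 (9.92% and 7.88% of all genes), with a median of -0.48. *Actg2*, enteric smooth muscle actin, had medians of 40.7 CPM on day 7 and 21.9 CPM on day 42 (log2FC -0.93 ± 0.19, adjusted p = 0.00026) and 24.9 CPM in CTRL. For *Tagln*, an actin-binding protein, medians were 313 CPM on day 7 and 192 CPM on day 42 (log2FC -0.67 ± 0.17, adjusted p = 0.0024) and 205 CPM in CTRL. *Myh11*, the smooth muscle myosin heavy chain, had medians of 213 CPM on day 7 and 154 CPM on day 42 (log2FC -0.45 ± 0.12, adjusted p = 0.0066) and was below CTRL on day 42 (log2FC -0.68 ± 0.13, adjusted p = 3.7e-05). Opposite-strand counts equal to 20.2% of those of *Tagln* leave its value uncertain.

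Alveolar fibroblast genes had no common direction, with 1 higher and 2 lower of 10 (7.88% and 9.92% of all genes) and a median of -0.01. *Scn7a*, a sodium channel of these cells, spanned 161, 282 and 517 CPM on day 7 and 423, 552 and 650.2 CPM on day 42 (log2FC 0.87 ± 0.18, adjusted p = 0.00039), with a CTRL median of 576 CPM. By contrast *Mfap4*, a microfibril-associated protein, had medians of 568.3 CPM on day 7 and 353 CPM on day 42 (log2FC -0.81 ± 0.18, adjusted p = 0.00089). For *Pdgfra*, the receptor that marks these fibroblasts, medians were 415 CPM on day 7 and 273 CPM on day 42 (log2FC -0.58 ± 0.15, adjusted p = 0.0031). In both cases the day 42 median was also under that of CTRL (483 and 343 CPM), by a difference that missed the threshold (adjusted p = 0.057 and adjusted p = 0.083).

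Of 22 genes of the TGF-β pathway, the main profibrotic signal of the lung, 2 were higher and 3 lower, shares near those of all genes (7.88% and 9.92%), with a median of 0.01. Among ligands and their carriers, *Tgfb2* had medians of 44.9 CPM on day 7 and 61.6 CPM on day 42 (log2FC 0.41 ± 0.10, adjusted p = 0.0017). *Ltbp3*, which holds latent TGF-β in the matrix, had medians of 207 CPM on day 7 and 268 CPM on day 42 (log2FC 0.43 ± 0.09, adjusted p = 0.00017), with opposite-strand counts equal to 37.2% of its own. Of the receptors, *Tgfbr3*, the co-receptor betaglycan, had medians of 100.4 CPM on day 7 and 75.8 CPM on day 42 (log2FC -0.43 ± 0.13, adjusted p = 0.01) and was below CTRL on both days (log2FC -0.57 ± 0.11 on day 7 and -1.003 ± 0.13 on day 42). The other members that fell were the receptor *Tgfbr2* and *Fst*, which binds activins, with log2FC of -0.31 and -1.92.

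Genes of the transitional alveolar state were lower for 8 of 12 members and higher for 1 (9.92% and 7.88% of all genes), with a median of -0.63. The lower count stayed between 8 and 9 without each mouse in turn. Apart from *Sprr1a*, described above, *Krt19*, a keratin of simple epithelia, spanned 201, 325 and 507 CPM on day 7 and 159, 197 and 213 CPM on day 42 (log2FC -0.75 ± 0.13, adjusted p = 2.5e-05), with the CTRL median at 185 CPM. *Hbegf*, an EGF receptor ligand, had medians of 115 CPM on day 7 and 70.3 CPM on day 42 (log2FC -0.77 ± 0.15, adjusted p = 8.4e-05). *Tm4sf1*, a tetraspanin-like protein that endothelial cells also express, rose, with medians of 201 CPM on day 7 and 266 CPM on day 42 (log2FC 0.43 ± 0.09, adjusted p = 0.00048). Against CTRL, 11 of the 12 were higher on day 7 (24.8% of all genes) and 7 on day 42 (13.7% of all genes). The list's mean log2 CPM relative to CTRL was 1.14, 1.505 and 1.79 on day 7 and 0.31, 0.69 and 1.06 on day 42.

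Of the mature alveolar genes that changed, most rose. Of 12 AT2 genes 3 were higher and 0 lower (median 0.38), and of 12 AT1 genes 3 were higher and 1 lower (median 0.19), where 7.88% and 9.92% of all genes were. The fit of the 17 mice only called 9 AT2 genes higher. Among the AT2 genes, *Lpcat1*, which makes the phospholipid of surfactant, spanned 315, 388 and 457 CPM on day 7 and 513, 620.3 and 671 CPM on day 42 (log2FC 0.67 ± 0.14, adjusted p = 0.00048) and exceeded CTRL on day 42 (adjusted p = 0.0052). *Etv5*, a transcription factor that maintains AT2 cells, had medians of 91.7 CPM on day 7 and 129 CPM on day 42 (log2FC 0.53 ± 0.18, adjusted p = 0.035), a call lost without any 1 of 6 mice (adjusted p = 0.064 without day 7 mouse 8, highest adjusted p = 0.072). The AT1 gene *Rtkn2* spanned 67.4, 129.6 and 171 CPM on day 7 and 183, 238 and 263 CPM on day 42 (log2FC 0.83 ± 0.20, adjusted p = 0.0014) with a CTRL median of 230.5 CPM. *Akap5*, a kinase anchor, had medians of 369.7 CPM on day 7 and 534 CPM on day 42 (log2FC 0.47 ± 0.13, adjusted p = 0.0072). For *Clic5*, a chloride channel protein, medians were 951 CPM on day 7 and 1256 CPM on day 42 (log2FC 0.40 ± 0.14, adjusted p = 0.039), and the call was lost without any 1 of 7 mice (adjusted p = 0.055 without day 7 mouse 8, highest adjusted p = 0.076). *Pdpn*, podoplanin, which AT1 cells share with lymphatic vessels and activated stroma, fell, with medians of 233 CPM on day 7 and 190.5 CPM on day 42 (log2FC -0.33 ± 0.12, adjusted p = 0.044). That call was lost without any 1 of 8 mice (highest adjusted p = 0.11, without day 7 mouse 5), which left 0 AT1 genes lower.

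Airway genes were called at about the share of all genes (7.88% higher and 9.92% lower) or below it. In the secretory list 0 of 10 members passed edgeR's test in either direction (2 higher and 1 lower at an unadjusted p under 0.05, and 0 higher and 1 lower by DESeq2), and 1 was lower without day 7 mouse 1 or 7 and 1 higher without day 7 mouse 2. *Reg3g*, an antimicrobial lectin, had medians of 3.87 CPM on day 7 and 0.889 CPM on day 42 (log2FC -3.06 ± 1.15, adjusted p = 0.053). *Bpifa1*, a secreted surface protein, had medians of 10.8 CPM on day 7 and 4.34 CPM on day 42 (log2FC 1.95 ± 0.92, adjusted p = 0.14), so the medians and the fitted fold differed in direction. For *Cyp2f2*, the club cell cytochrome P450, medians were 1190.5 CPM on day 7 and 1549.8 CPM on day 42 (log2FC 0.61 ± 0.30, adjusted p = 0.14). *Cyp2f2* had been below CTRL on day 7 (log2FC -1.18 ± 0.27, adjusted p = 0.0003), and its day 42 range of 1340.5 to 2413 CPM overlapped those of both day 7 and CTRL. In the ciliated list 1 of 10 was higher and 1 lower (median -0.34). *Tppp3*, a tubulin-associated protein, had medians of 145 CPM on day 7 and 247 CPM on day 42 (log2FC 0.79 ± 0.24, adjusted p = 0.015). *Foxj1*, the master factor of motile cilia, fell, with medians of 98.4 CPM on day 7 and 63.1 CPM on day 42 (log2FC -0.60 ± 0.19, adjusted p = 0.022), a call lost without day 42 mouse 2 or 5 (adjusted p = 0.062 and adjusted p = 0.051). The fit of the 17 mice only gave 4 ciliated genes lower. *Cfap126*, a cilium protein, was at 20.6 CPM on day 7 and 15.01 CPM on day 42 (log2FC -0.40 ± 0.19, adjusted p = 0.13).

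Of 17 endothelial genes, 3 were higher and 1 lower on day 42 (7.88% and 9.92% of all genes), with a median of 0.08. In contrast, 12 had been below CTRL on day 7 (21.0% of all genes were) and 8 were on day 42 (11.0% of all genes). The apelin pair was among those that rose. *Aplnr*, the apelin receptor of general capillary cells, spanned 10.03, 29.7 and 49.4 CPM on day 7 and 43.2, 67.6 and 86.9 CPM on day 42 (log2FC 1.06 ± 0.28, adjusted p = 0.0039), against a CTRL median of 80.8 CPM, and its ligand *Apln*, of aerocytes, had medians of 22.8 CPM on day 7 and 46.4 CPM on day 42 (log2FC 0.81 ± 0.24, adjusted p = 0.011). The *Apln* call was lost without day 42 mouse 4 (adjusted p = 0.057). *Tie1*, an angiopoietin co-receptor, had medians of 245 CPM on day 7 and 306 CPM on day 42 (log2FC 0.38 ± 0.11, adjusted p = 0.013) and remained below CTRL (adjusted p = 0.026). *Fibin*, which is enriched in aerocytes, fell further, with medians of 57.2 CPM on day 7 and 37.3 CPM on day 42 (log2FC -0.76 ± 0.24, adjusted p = 0.019) and 94.6 CPM in CTRL. Its call was lost without day 42 mouse 6 or 7 (adjusted p = 0.052 and adjusted p = 0.071). The lower count was 2 without day 42 mouse 4, and the fit of the 17 mice only gave 6 higher.

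Of 12 alveolar macrophage genes 5 were higher and 0 lower (median 0.43), and of 16 genes of monocyte-derived and lipid-associated macrophages 3 were higher and 0 lower (median 0.20), where 7.88% of all genes were higher. The second list had no stable direction. It had 4 members higher and 4 lower at an unadjusted p under 0.05, 1 higher and 2 lower without day 42 mouse 7, 1 lower without day 7 mouse 3, 5 or 7, and 4 lower in the fit of the 17 mice only. In the first list 6 were higher and 2 lower at an unadjusted p under 0.05. In that list 1 was lower without day 42 mouse 7 and 1 in the fit of the 17 mice only. *Atp6v0d2*, a proton pump subunit, spanned 40.2, 50.98 and 69.6 CPM on day 7 and 43.6, 102 and 182 CPM on day 42 (log2FC 1.10 ± 0.23, adjusted p = 0.00025) and was above CTRL on both days, with log2FC of 0.74 on day 7 (adjusted p = 0.0031) and 1.84 on day 42 (adjusted p = 6.1e-09). *Ear2*, an eosinophil-associated ribonuclease of these cells with near-identical copies, had medians of 26.1 CPM on day 7 and 48.8 CPM on day 42 (log2FC 0.90 ± 0.17, adjusted p = 9.5e-05). For *Pparg*, the factor that specifies alveolar macrophages, medians were 10.4 CPM on day 7 and 15.4 CPM on day 42 (log2FC 0.54 ± 0.15, adjusted p = 0.0075). In the second list *Gpnmb*, a lysosomal glycoprotein of lipid-laden macrophages, spanned 44.6, 71.04 and 189.8 CPM on day 7 and 28.99, 154 and 324 CPM on day 42 (log2FC 0.97 ± 0.35, adjusted p = 0.04), with CTRL mice at 14.3 to 22.3 CPM. That call was lost without any 1 of 11 mice (adjusted p = 0.062 without day 7 mouse 8, highest adjusted p = 0.15 without day 42 mouse 7). *Cd9*, a tetraspanin, had medians of 411 CPM on day 7 and 528 CPM on day 42 (log2FC 0.38 ± 0.09, adjusted p = 0.0027), and the fatty acid-binding *Fabp5* of 61.6 CPM on day 7 and 96.1 CPM on day 42 (log2FC 0.55 ± 0.17, adjusted p = 0.019), a call lost without day 42 mouse 7 (adjusted p = 0.052). Against CTRL, 12 of these 16 were higher on day 7 (24.8% of all genes) and 14 on day 42 (13.7% of all genes).

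Antibody genes of plasma cells rose. Of 17 tested B and plasma cell genes, 6 were higher and 0 lower on day 42 (7.88% and 9.92% of all genes), with a median of 0.64. The 6 were all antibody chains or *Jchain*. *Jchain*, which joins IgA and IgM into polymers, spanned 3.52, 14.5 and 54.2 CPM on day 7 and 33.5, 79.2 and 306 CPM on day 42 (log2FC 2.86 ± 0.60, adjusted p = 0.00031). The overlap came from day 7 mouse 8, at 54.2 CPM, without which the log2FC was 3.24. *Igkc*, the kappa constant region, had medians of 85.2 CPM on day 7 and 295 CPM on day 42 (log2FC 2.15 ± 0.51, adjusted p = 0.0016). As a mean of log2 CPM relative to CTRL, the list was at -1.08, -0.39 and 0.16 on day 7 and -0.01, 0.51 and 2.08 on day 42, below CTRL for most day 7 mice and above for most day 42 mice. Against CTRL, 6 members were lower on day 7 (21.0% of all genes) and 6 were higher on day 42 (13.7% of all genes). The median log2FC of the 17 members against CTRL was -0.58 on day 7 and only 0.02 on day 42.

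Of 16 tested T and NK cell genes edgeR called 0 higher and 0 lower (7.88% and 9.92% of all genes), with a median of 0.01. At an unadjusted p under 0.05 there were 0 higher and 1 lower, and by DESeq2 0 higher and 0 lower. *Ctla4*, an inhibitory receptor, had medians of 1.76 CPM on day 7 and 0.863 CPM on day 42 (log2FC -0.93 ± 0.46, adjusted p = 0.15). The cytotoxic granule gene *Nkg7* had medians of 4.55 CPM on day 7 and 5.75 CPM on day 42 (log2FC 0.44 ± 0.25, adjusted p = 0.23). *Cd3g*, of the T cell receptor complex, had medians of 4.97 CPM on day 7 and 7.16 CPM on day 42 (log2FC 0.36 ± 0.26, adjusted p = 0.35). A gene on the same strand as *Ctla4* held 166.0% of its counts, so that value is uncertain. MHC class II, which presents peptides to T cells, also had 0 of 9 members called higher or lower by edgeR (7.88% and 9.92% of all genes). The median was 0.32. At an unadjusted p under 0.05 there were 4 higher and 0 lower, and by DESeq2 1 higher and 0 lower. However, 2 were higher without day 7 mouse 2, 1 without day 7 mouse 4 and 3 in the fit of the 17 mice only. *Cd74*, the invariant chain, had medians of 1279 CPM on day 7 and 1859.7 CPM on day 42 (log2FC 0.44 ± 0.17, adjusted p = 0.066). *H2-DMb1*, which loads peptide, had medians of 63.9 CPM on day 7 and 74.2 CPM on day 42 (log2FC 0.32 ± 0.13, adjusted p = 0.083), and *H2-Aa*, a chain of the presenting molecule, of 521 CPM on day 7 and 741 CPM on day 42 (log2FC 0.39 ± 0.17, adjusted p = 0.11). Against CTRL, 6 of the 9 were higher on day 42 (13.7% of all genes) and 3 on day 7 (24.8% of all genes).

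Of 9 tested neutrophil and acute-phase genes 1 was higher and 0 lower (7.88% and 9.92% of all genes), and 1 was lower without day 42 mouse 7. The list leaves out *Serpina3n*, the acute-phase inhibitor described above, which fell (log2FC -2.37 ± 0.34, adjusted p = 7.4e-07). *Ltf*, lactoferrin, which airway glands make as well as neutrophils, spanned 20.1, 39.7 and 64.3 CPM on day 7 and 8.58, 39.3 and 463 CPM on day 42 (log2FC 1.71 ± 0.51, adjusted p = 0.013), and the call rested on 1 mouse, since without day 42 mouse 1 the log2FC was 0.95 (adjusted p = 0.2). The same mouse had the highest *Bpifa1*, at 331 CPM. *Mmp8*, neutrophil collagenase, was at 8.31 CPM on day 7 and 4.64 CPM on day 42 (log2FC -0.85 ± 0.34, adjusted p = 0.074). *Lcn2*, lipocalin-2, was at 506 CPM on day 7 and 355 CPM on day 42 (log2FC -0.54 ± 0.24, adjusted p = 0.11). Both missed the threshold.

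Of 26 chemokines and cytokines 12 were lower and 1 was higher (9.92% and 7.88% of all genes), with a median of -0.65. The lower count was 9 without day 7 mouse 8 and 8 without day 42 mouse 2. *Ccl17*, a ligand of CCR4 on T helper 2 cells, spanned 16.2, 25.6 and 33.6 CPM on day 7 and 3.19, 7.84 and 12.2 CPM on day 42 (log2FC -1.82 ± 0.32, adjusted p = 2.6e-05). Its neighbour *Ccl22*, for the same receptor, had medians of 27.7 CPM on day 7 and 16.3 CPM on day 42 (log2FC -0.93 ± 0.19, adjusted p = 0.00029). For *Ccl8*, which draws monocytes and T cells, medians were 19.6 CPM on day 7 and 4.78 CPM on day 42 (log2FC -1.82 ± 0.38, adjusted p = 0.0003). In these 3 genes day 7 and day 42 did not overlap, and as a group day 42 remained above CTRL (adjusted p = 0.032, adjusted p = 0.0027 and adjusted p = 0.0089). The ranges of day 42 and CTRL overlapped for *Ccl17* and *Ccl22*, where the highest CTRL mouse reached 8.43 and 11.8 CPM. *Cxcl12*, the homeostatic ligand of CXCR4, rose, with medians of 261 CPM on day 7 and 415 CPM on day 42 (log2FC 0.71 ± 0.20, adjusted p = 0.0078). Against CTRL, 19 of the 26 were higher on day 7 (24.8% of all genes) and 17 on day 42 (13.7% of all genes).

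Of 15 interferon-stimulated genes 3 were lower and 0 higher (9.92% and 7.88% of all genes), with a median of -0.22. *Irf7*, a transcription factor, had medians of 37.99 CPM on day 7 and 26.2 CPM on day 42 (log2FC -0.76 ± 0.19, adjusted p = 0.0022). *Isg15*, a ubiquitin-like modifier, had medians of 18.3 CPM on day 7 and 9.17 CPM on day 42 (log2FC -0.82 ± 0.22, adjusted p = 0.0063). *Mx1*, an antiviral GTPase, had medians of 7.93 CPM on day 7 and 4.07 CPM on day 42 (log2FC -0.82 ± 0.27, adjusted p = 0.022), a call lost without day 42 mouse 1 (adjusted p = 0.052). Genes opposite *Irf7* held 188.0% of its counts, which leaves its value uncertain. In the complement list 5 of 11 members were lower and 0 higher (9.92% and 7.88% of all genes), with a median of -0.36. The count was unchanged by leaving out any 1 mouse. The list leaves out *Hc*, complement component C5, which was counted with the AT2 genes and rose (log2FC 1.10 ± 0.32, adjusted p = 0.012). *C3*, the central component, had medians of 1382 CPM on day 7 and 704 CPM on day 42 (log2FC -0.79 ± 0.15, adjusted p = 6.8e-05). For *C1ra*, a protease of the classical pathway, medians were 85.1 CPM on day 7 and 66.2 CPM on day 42 (log2FC -0.36 ± 0.07, adjusted p = 0.00024).

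Of 17 genes of ER chaperones and the unfolded protein response 2 were lower and 0 higher (median -0.07), and the share lower was near that of all genes (9.92%). The lower count was 0 without day 7 mouse 3 or 8 or day 42 mouse 2, 5 or 6, and 1 without any of 5 other mice (day 7 mice 5, 9 and 10 and day 42 mice 4 and 7). *Sdf2l1*, of the ER chaperone complex, had medians of 25.6 CPM on day 7 and 17.7 CPM on day 42 (log2FC -0.42 ± 0.15, adjusted p = 0.037), and the secreted factor *Manf* of 97.5 CPM on day 7 and 80.2 CPM on day 42 (log2FC -0.27 ± 0.09, adjusted p = 0.031). *Hspa5*, the chaperone BiP, was at 719 CPM on day 7 and 624.7 CPM on day 42 (log2FC -0.19 ± 0.09, adjusted p = 0.14). Overlapping genes held 59.5% of the counts of *Manf* on its own strand and 44.9% on the other, so its value is uncertain.

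Of 13 antioxidant genes and NRF2 targets 5 were lower and 0 higher (9.92% and 7.88% of all genes), with a median of -0.13. The lower count was 2 without day 7 mouse 5 and 3 without day 42 mouse 4. *Srxn1*, sulfiredoxin, had medians of 52.5 CPM on day 7 and 41.98 CPM on day 42 (log2FC -0.39 ± 0.11, adjusted p = 0.0073). For *Gclc*, which catalyses the first step of glutathione synthesis, medians were 389 CPM on day 7 and 288 CPM on day 42 (log2FC -0.42 ± 0.12, adjusted p = 0.0084), both still above CTRL on day 42 (adjusted p = 0.0054 and adjusted p = 0.0029). *Mt2*, a metal-binding metallothionein, spanned 32.3, 66.6 and 339.7 CPM on day 7 and 13.1, 25.5 and 41.5 CPM on day 42 (log2FC -1.78 ± 0.53, adjusted p = 0.013). The call was lost without day 7 mouse 5, which had the highest level (log2FC -1.27, adjusted p = 0.077).

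Genes of sterol and fatty acid synthesis were lower for 8 of 16 members and higher for 0 (9.92% and 7.88% of all genes), with a median of -0.20. The lower count was 5 without day 7 mouse 5 and 5 without day 42 mouse 7. In the other direction, 2 members were higher at an unadjusted p under 0.05, 2 in the fit of the 17 mice only and 1 without day 7 mouse 3. The list's summed level was higher on day 42, with medians of 4292 CPM on day 7 and 5669 CPM on day 42 and overlapping groups. *Sqle*, squalene epoxidase, had medians of 85.6 CPM on day 7 and 62.2 CPM on day 42 (log2FC -0.56 ± 0.12, adjusted p = 0.0003). *Elovl6*, a fatty acid elongase, had medians of 17.4 CPM on day 7 and 8.97 CPM on day 42 (log2FC -0.96 ± 0.21, adjusted p = 0.0004). Neither gene differed from CTRL on day 42 at the threshold (adjusted p = 0.098 and adjusted p = 0.56).

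Clock genes departed from CTRL on both days. Between the days 3 of 15 were lower and 1 higher (9.92% and 7.88% of all genes), with a median of -0.05. Against CTRL, however, 11 were lower and 2 higher on day 7 (21.0% and 24.8% of all genes) and 10 lower and 3 higher on day 42 (11.0% and 13.7% of all genes). Without day 42 mouse 4, 2 were higher between the days. *Cry1*, a repressor of the clock, spanned 23.1, 41.8 and 50.5 CPM on day 7 and 11.6, 16.3 and 21.1 CPM on day 42 (log2FC -1.20 ± 0.19, adjusted p = 4.5e-06), and *Per2*, its partner, had medians of 97.05 CPM on day 7 and 42.97 CPM on day 42 (log2FC -1.04 ± 0.21, adjusted p = 0.00021). *Hlf*, an output factor, had medians of 48.2 CPM on day 7 and 25.7 CPM on day 42 (log2FC -0.74 ± 0.21, adjusted p = 0.0099), and *Nr1d1*, the repressor REV-ERBα, rose, with 76.4 CPM on day 7 and 210.1 CPM on day 42 (log2FC 0.94 ± 0.28, adjusted p = 0.011), although genes opposite it held 71.6% of its counts. Levels of *Cry1* on day 7 fell into separate ranges, 4 mice between 23.1 and 31.1 CPM and 6 between 40.8 and 50.5 CPM, and CTRL mice ranged from 21.8 to 52.6 CPM. These genes cycle over the day, the hour of death is not in the sources used here, and its part in these values was not tested.

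**Figure D5:**
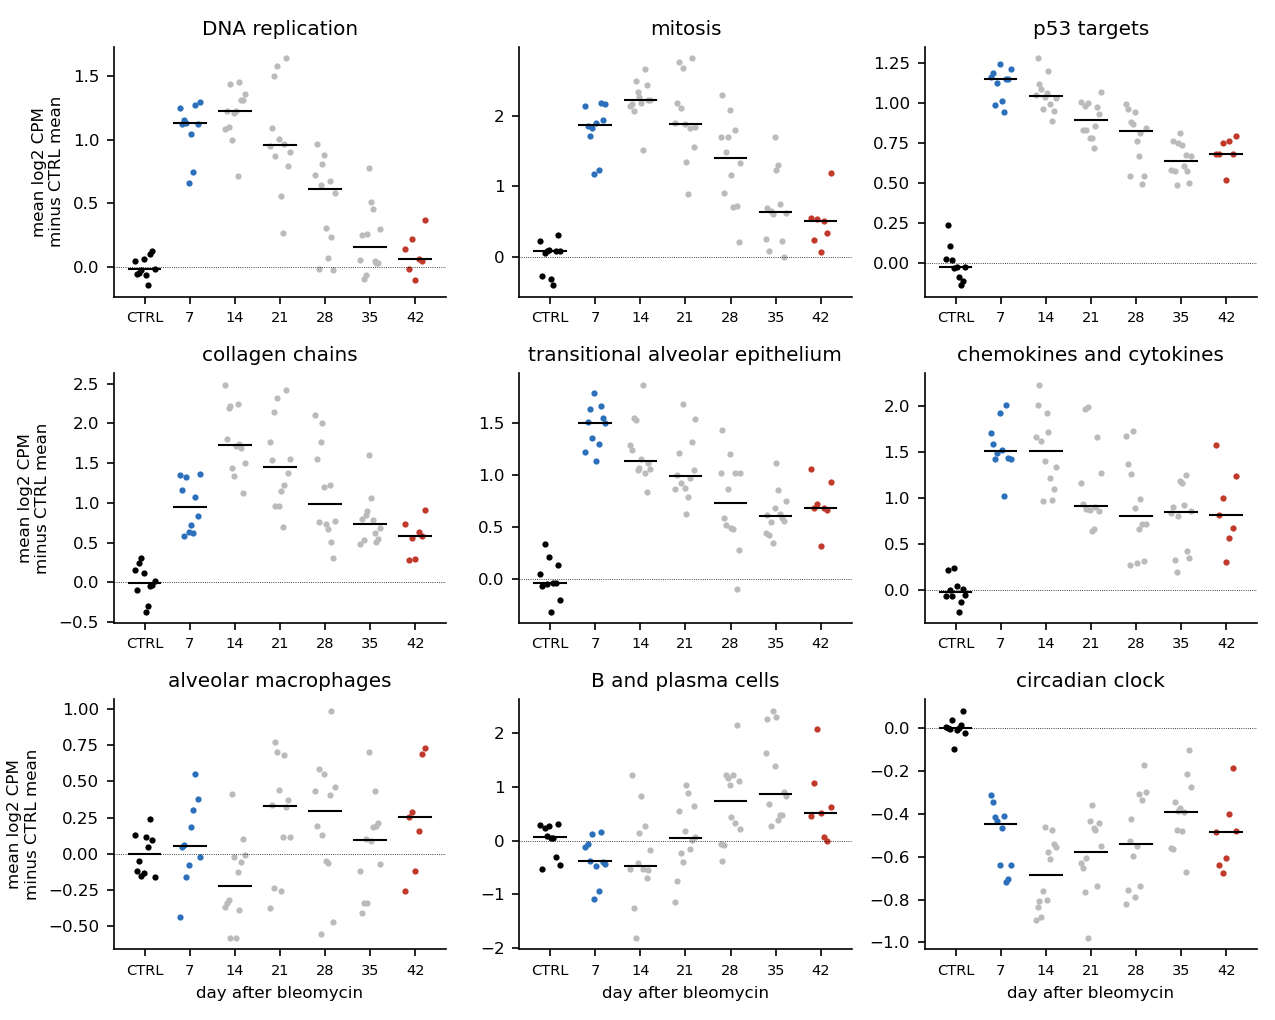
Mean log2 CPM of the members of 9 lists in each mouse, less the mean of CTRL, by day, with CTRL black, day 7 blue, day 42 red, the days between grey and a line at each group's median. The DNA replication genes returned from a median of 1.13 on day 7 to 0.07 on day 42, p53 targets from 1.15 to 0.69, and the B and plasma cell genes went from -0.39 to 0.51.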

How the data were processed

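RNA was sequenced from the inferior lobe of 75 mice, and the 17 mice of days 7 and 42 were compared. The authors purified polyadenylated RNA, prepared directional libraries, sequenced them single-end and aligned reads to GRCm38 (mm10). The submitters' processing notes name STAR 2.7.0f. The deposited values are raw counts per Ensembl gene, and the counting program and its use of strand or of multiply mapped reads are not given in the sources used here. Ensembl release 96 lists each of the 55536 gene identifiers. Total counts were 9240291 to 14665247 per library, and their number limits precision for low genes.

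Day 42 was tested against day 7, and each against CTRL, in 1 fit of all 75 mice with edgeR 4.0.16 (R 4.3.3), using TMM factors, filterByExpr, the quasi-likelihood F test and Benjamini-Hochberg adjustment over 16221 genes at a threshold of 0.05. The labels do not say more than that each sample is a mouse, so p-values measure the spread between mice. This spread was estimated within the groups of all 75 mice, the days between included, and not from day 7 and day 42 alone. The alternatives included a fit of the compared days only. Errors of a log2FC are fitted standard errors, CPM were scaled by TMM factors, and log2 CPM used a prior count of 2. The chi-square per degree of freedom was at least 4.62 for all 66 pairs of mice within a group, so no pair of libraries had the same counts within sampling noise. In simulated counts with 16119 genes for this comparison, 87 of 100 genes changed by 1 on the log2 scale and 98 of 100 changed by 2 were recovered, and 8 unchanged genes were called. The simulated counts followed the fitted spread, with no outlying mice and far fewer changed genes than were called here. They test the code and do not give the recovery in the real data.

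The groups, the 34 gene lists (452 genes, 431 tested) and the rules for named genes were chosen with earlier results of these data known. Named were the 10 genes with the largest and the 10 with the smallest log2FC, and the 5 largest rises and falls in mean CPM, among called genes with a gene symbol other than a clone or predicted-gene name, a mean log2 CPM above 1 and no overlap between the days. In each of 27 lists the 3 tested members with the smallest p were named, and the called member of the smallest p against the list's main direction. Some of these are not reported here. *Mcm6*, *Tgfbr2*, *Fst*, *Adipoq*, *Plin1*, *Col1a1* and *Col1a2*, and the E2F letters, were chosen after their values were seen. The 7 other lists checked other tissues and mitochondrial RNA. Lists are described by counts and medians with no test of the list. Counts at an unadjusted p are given for list members only, without the share over all genes. The alternatives were DESeq2 1.42.0, library size only, upper quartile factors, no filter, at least 10 counts in each of the 17 mice, a fit of the 17 mice only, the replicate number as a block, an absolute log2FC of at least 1, and leaving out each of the 17 mice.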

Additional observations from a re-analysis of the deposited data

Results flagged for a closer look

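For the named genes and the 7 lists of other tissues, 232 sets of values (1 group each) were screened for a mouse whose gap to its nearest neighbour was large relative to the range of its group (Dixon's test at the 95% level), and 25 were found. About 1 in 20 would be flagged among independent, normally distributed values. These sets share mice and hold CPM, for which neither condition is assured, so the 25 are not set against that rate. Day 7 mouse 5 accounted for 8 of them. It had the lowest *Igha* (18.03 CPM, others from 39.9 CPM), *Hpcal4* (0.0880 CPM, others from 1.34 CPM), *Rtkn2* (67.4 CPM, others from 106.6 CPM), *Tie1* (167.9 CPM) and *H2-Aa* (322.2 CPM), and the highest *Srxn1* (84.2 CPM, others to 55.4 CPM), *Mt2* (339.7 CPM, others to 95.0 CPM) and *Sqle* (137.6 CPM, others to 98.6 CPM). Day 7 mouse 3 had the highest *Cldn18* (935.3 CPM), *Tm4sf1* (259.6 CPM) and summed red blood cell genes (1724 CPM, others to 1022 CPM) and the lowest *C3* (949.7 CPM). Day 7 mouse 1 had the lowest *Cd9* (286.9 CPM), and day 7 mouse 8 the highest summed adipose genes (109.6 CPM).

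On day 42, mouse 1 had the lowest *Bbc3* (14.5 CPM) and the highest *Hbegf* (93.6 CPM), *Hspa5* (797.4 CPM) and *Gclc* (411.8 CPM). Mouse 7 had the lowest *Etv5* (89.1 CPM) and *Tppp3* (165.4 CPM) and the highest *Ctla4* (1.83 CPM) and summed thymus genes (3.76 CPM, others to 1.12 CPM). Mouse 5 had the highest *Bcan* (10.6 CPM), mouse 6 the highest summed adipose genes (2.18 CPM) and mouse 3 the lowest summed mitochondrially encoded genes (11472 CPM).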

How the results depend on the processing

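The counts of 2888 genes in all, 1279 higher and 1609 lower stayed within 1.5 times the reported value under every alternative but the fold threshold, from 2223 without a filter (38610 genes tested) to 3482 in the fit of the 17 mice only. An absolute log2FC of at least 1 left 537, 191 higher and 346 lower. Leaving out 1 mouse gave 2350 (without day 42 mouse 2) to 2988 genes, 1035 to 1327 higher and 1217 to 1689 lower. The share of calls that were higher was 44.3%, and 38.9% to 48.4% under other scalings and the smaller fit, and no scaling moved the median log2FC by more than 0.012 in either direction. With the replicate number as a block 2828 genes were called, 1232 higher and 1596 lower. Numbers did not pair the mice, since the deviations of same-numbered mice correlated above 0.1 in 1 of 7 pairs (-0.27 to 0.26), and 1 of 7 day 42 mice correlated best with its own number. Of 95 named genes called, 79 kept the call in every refit and alternative (the fold threshold apart), 16 lost it without at least 1 mouse, 8 lost it under at least 1 other alternative, and 0 changed sign. Counts of list members moved by over 1.5 times in at least 1 setting for 30 of 68 counts, and for 3 with a count of at least 5, the collagen, antioxidant and sterol lists. The 7 mice of day 42 and low counts limit what small differences can be seen.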

Other observations

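For the median gene, the spread between mice was wider on day 7 than on day 42. Over all genes tested, the median SD of log2 CPM between mice was 0.226 on day 7, 0.183 on day 42 and 0.169 in CTRL. The days between were not compared in this way. Not all genes and lists followed this order. The range of list means was wider on day 42 for some lists, such as endothelium, and narrower for others, such as DNA replication. *Igha* also went against the order. Relative to its mean it varied more on day 42, and had an SD of 24.8 CPM about a mean of 56.8 CPM on day 7 and of 321.7 CPM about a mean of 472.2 CPM on day 42.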
